A study of Mus musculus with 123 samples.

Results

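Single mouse embryos of the Sox2 control group were compared between the morula and the early inner cell mass (ICM). The 16 embryos are all those labelled as Sox2 control morulae (8 embryos) or Sox2 control early ICMs (8 embryos) in a series that holds 96 Ctrl and KO embryos and 27 embryos labelled MWT. The MWT embryos were not included. Each library is one embryo on the background labelled B6C3F1, from superovulated mothers. The control (Ctrl) embryos came from fathers heterozygous for a Sox2 knockout allele linked to EGFP (Sox2 +/EGFP) and mothers homozygous for a floxed Sox2 allele that carried Zp3-Cre, a Cre transgene active in oocytes. They were the EGFP-negative embryos, so both groups lacked maternal Sox2 and carried 1 intact paternal Sox2 allele. The morulae were whole embryos collected at E2.75 (embryonic day) with no treatment. The early ICMs, labelled E3.75, came from embryos taken at E2.5 and cultured in KSOM medium with 1 µM of the MEK inhibitor PD0325901 until the early blastocyst stage, when the trophectoderm was removed by immunosurgery. Developmental age, culture, MEK inhibition and the loss of outer cells therefore cannot be told apart in any difference between the groups.

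The comparison addresses how the transcriptome changes as pluripotent cells arise. At the morula stage all cells can still form either the trophectoderm, the outer epithelium that builds the placenta, or the ICM. The ICM then divides into the epiblast, which is pluripotent and forms the body, and the primitive endoderm, which forms the yolk sac. Oct4 (encoded by Pou5f1), Sox2 and Nanog are the core transcription factors of the pluripotent state, and FGF signalling through MEK is the best known signal that directs ICM cells to primitive endoderm.

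RNA was read as 3′-end tags with unique molecular identifiers (UMIs), and levels are given as CPM, the UMIs of a gene divided by all UMIs of the embryo in units of 1e6. Total UMIs were 974142 to 1344035 in the morulae and 812422 to 1051677 in the early ICMs, a difference of -176527 between the means (two-sided exact permutation test, p = 0.0042, n = 8 per group). The number of genes with a UMI was 13326 ± 287 (SD) in morulae and 13310.5 ± 313 in early ICMs (exact permutation p = 0.91, n = 8 per group). Mitochondrially encoded RNA took 2.87% to 4.46% of UMIs in morulae and 4.42% to 5.24% in early ICMs. Markers of the cumulus and granulosa cells around the oocyte summed to at most 2.85 CPM in any embryo. The gene lists were chosen with earlier results of these data known. The counts of trophectoderm genes given further on are therefore not an independent check of the labelled stages. Counted over 4 Y-linked genes, 5 of the morulae and 3 of the early ICMs had 10 UMIs or more. Of 5 sex-linked genes tested, Xist, the RNA that silences one X chromosome in females, was the one called between the stages (log2 change 2.80 ± 1.23, adjusted p = 0.048), and the call was lost when any one of morulae 5, 7, 12, 14 and 17 or early ICMs 2, 4, 7, 9 and 11 was left out (adjusted p from 0.055 to 0.085). The part of the mitochondrial share in the results was not tested. The labels do not say which embryos shared a mother, so the tests measure the spread between embryos only.

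The strand used in counting is not stated. Of the genes named here, 39 share at least 50 exon bases with a gene on the opposite strand in the annotation, among them Pou5f1, Sox17, Bmp4, Gata3, Gata6, Cish, Pdgfra, Ezh2, Eed and Ccna2, and reads of such pairs cannot be told apart. A further limit holds for 13 named genes that share exon bases with a gene on the same strand, such as Spp1, Khdc3 and Meg3.

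Sox2 itself, the gene altered in this line (ENSMUSG00000074637, chr3:34650405-34652461 in mm10), ranged from 2.91 to 34.2 (median 12.4) CPM in the morulae and from 72.6 to 194 (median 94.0) CPM in the early ICMs. Every early ICM lay above every morula, with a log2 change of 2.90 ± 0.32 (SE, adjusted p = 4.9e-13). For comparison, Sox2 knockout (KO) embryos, which carry no intact allele, measured 1.57 ± 1.16 CPM (SD) as morulae and 23.6 ± 10.0 CPM as early ICMs, against 109 ± 40.0 CPM in the Ctrl early ICMs (n = 8 per group). The 3′ loxP site of the targeted allele lies within the Sox2 3′ UTR, so a tag at the transcript end can lie outside the deleted part and does not by itself check the deletion.

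Of 14053 genes tested, 4489 (31.9%) changed between the stages at an adjusted p under 0.05 with a log2 fold change of at least 1, by edgeR's quasi-likelihood test with Benjamini-Hochberg adjustment over all genes tested, from which every adjusted p below is taken. Of these, 2422 (17.2%) were higher and 2067 (14.7%) lower in the early ICMs. Of the called genes, 811 had under 30 UMIs over the 16 embryos, the lowest 4 UMIs, and for 24 called genes the summed UMIs of the stages did not differ by an exact binomial test at p under 0.05. None of these 24 is a list member or is named here. A change of at least 16-fold was called for 170 genes that rose and 100 that fell. All 8 embryos of one stage lay outside the range of the other in 2612 genes (18.6%), with the ICMs above in 1408 (10.0%) and below in 1204 (8.57%). Counts for gene lists below are to be read against these shares. In bulk libraries of this kind, fewer cells of a type and less RNA per cell cannot be told apart.

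**Figure D1:**
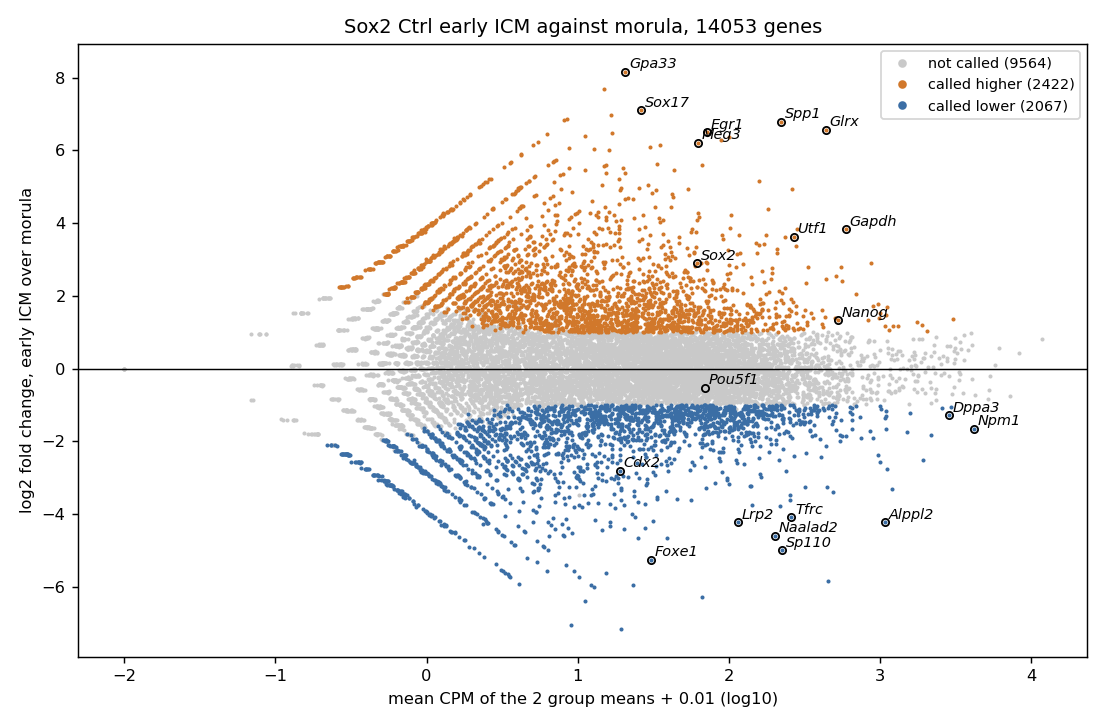
Log2 fold change from morula to early ICM (vertical axis) against mean level in CPM (log axis) for the genes tested, one point per gene, with called genes coloured by direction. The 2422 genes called higher and the 2067 called lower spread over the whole range of levels, and the median of all genes lies at 0.026.

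Pluripotency genes moved in both directions. Of 29 tested members of a list of core and naive pluripotency genes, 13 rose, 4 fell and the remaining 12 did not pass the test, and the median log2 change was 0.59 against 0.026 over all genes. The summed level of the list overlapped between the stages with a lower median in the early ICMs, at 8673 to 10575 (median 10077) CPM in morulae and 7742 to 12146 (median 8847) CPM in early ICMs. The most abundant member at both stages was Dppa3, which fell, with 35220 UMIs over the morulae and 12814 over the early ICMs. The sum therefore depends strongly on this gene. Utf1, a chromatin-associated factor of pluripotent cells (ENSMUSG00000047751, chr7:139943789-139945112), ranged from 24.5 to 54.3 (median 37.7) CPM in morulae and from 293 to 719 (median 535) CPM in early ICMs. No early ICM came near the morulae, and the log2 change was 3.63 ± 0.22 (adjusted p = 1.1e-26). Nanog ranged from 84.2 to 557 (median 217) CPM in morulae and from 574 to 1088 (median 708) CPM in early ICMs, a log2 change of 1.32 ± 0.24 (adjusted p = 1.3e-06). The morulae differed widely among themselves: morulae 1, 5, 16 and 20 held 322 to 557 CPM of Nanog, and the other four held 84.2 to 113 CPM. Morulae 1, 16 and 20 were also the ones with under 10 Y-linked UMIs. The highest morula stayed just below the lowest early ICM. Tdgf1, a coreceptor of Nodal, went from a median of 39.5 (15.4 to 93.8) CPM to 239.9 (80.9 to 547) CPM (log2 change 2.69 ± 0.30, adjusted p = 7.9e-13), with early ICM 2 inside the morula range and the other seven above it.

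Several genes of the list started from almost nothing. Bmp4, a BMP ligand of the epiblast, had 1 UMI in the 8 morulae together and 240 UMIs in the early ICMs, where every embryo had 8.56 CPM or more. Per UMI sequenced this is a ratio of 286 (exact Poisson 95% interval 50.8 to 11326), an interval that covers counting error only. Spp1, which encodes the secreted protein osteopontin, ranged from 0.927 to 7.14 (median 3.42) CPM in morulae and from 7.26 to 1151 (median 291) CPM in early ICMs (log2 change 6.79 ± 0.89, adjusted p = 2.0e-10). Its lowest value among the early ICMs, in early ICM 2, was only just above the highest morula, whereas early ICMs 4 and 10 held 1151 and 942 CPM. Jam2 (log2 change 3.56 ± 0.26), Tcl1 (3.08 ± 0.47) and Zfp57, a factor that protects imprinted methylation (2.56 ± 0.41), also rose without overlap of the groups (adjusted p = 2.5e-22, 2.6e-08 and 7.0e-08).

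Other genes of the same list did not pass or fell. Pou5f1 (ENSMUSG00000024406, chr17:35506018-35510772) ranged from 65.8 to 91.5 (median 80.6) CPM in morulae and from 40.5 to 88.6 (median 53.7) CPM in early ICMs. The groups overlapped, and the log2 change of -0.53 ± 0.19 (adjusted p = 0.015) did not reach the fold required for a call. Esrrb and Tfcp2l1, orphan and Grainyhead-like factors of the naive state, had log2 changes of 0.20 ± 0.21 (adjusted p = 0.44) and -0.031 ± 0.14 (adjusted p = 0.87). Dppa3, a maternal factor that shields the genome from demethylation, went from a median of 4039 (3426 to 4466) CPM in morulae to 1679 (1417 to 2010.2) CPM in early ICMs, without overlap (log2 change -1.28 ± 0.17, adjusted p = 1.5e-10). Sox15, a SOX factor related to Sox2, showed the largest fall of the list, from a median of 198 (148 to 229.8) CPM to 29.3 (19.6 to 48.4) CPM (log2 change -2.58 ± 0.25, adjusted p = 1.2e-15). Fbxo15 fell as well, with a log2 change of -1.33 ± 0.20 (adjusted p = 2.4e-08). Nr5a2, an orphan receptor of the early embryo, changed by -1.07 ± 0.19 (adjusted p = 1.3e-06), and without morula 12 the change was -0.99, short of a call.

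**Figure D2:**
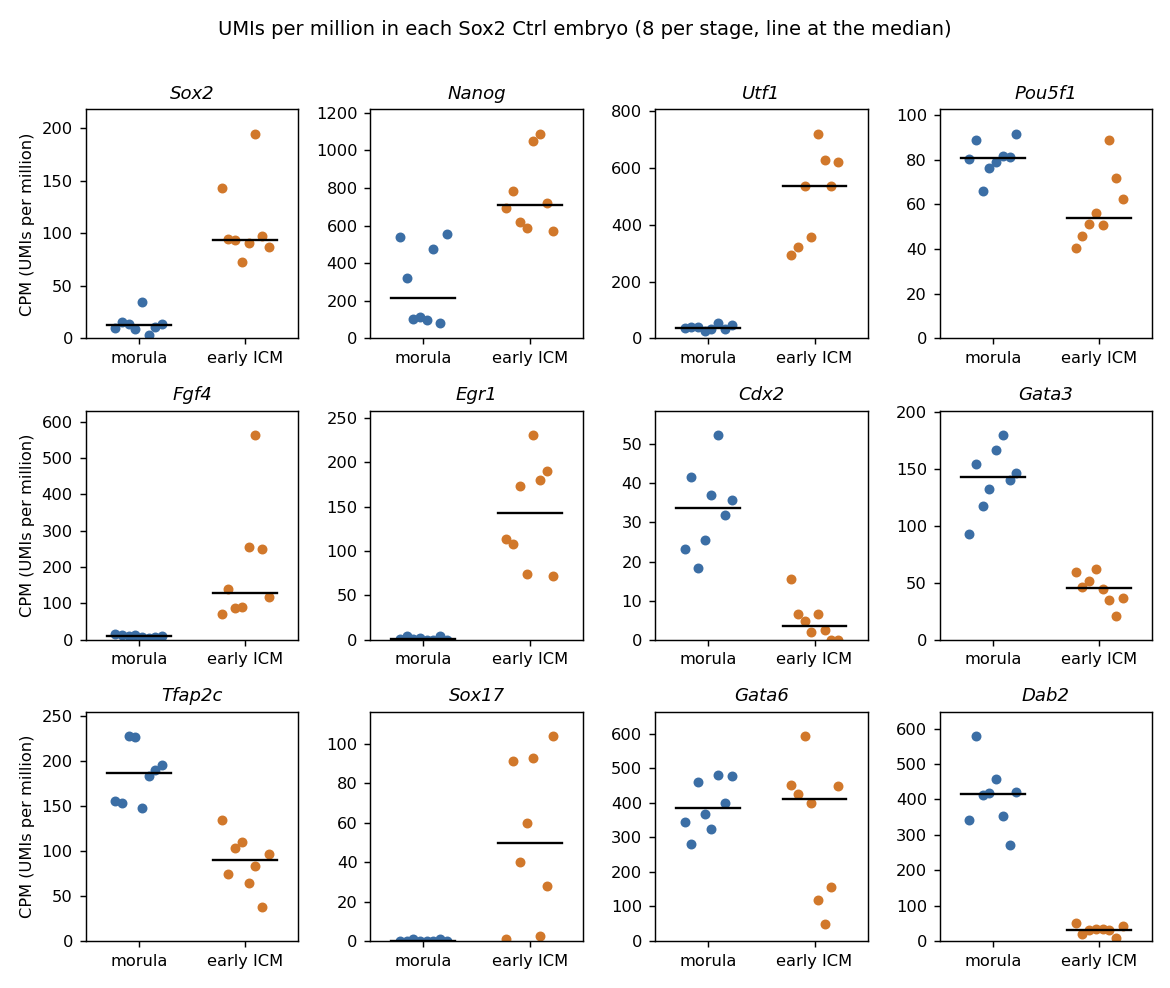
Level in CPM of 12 genes in each of the 16 embryos, one point per embryo, morulae and early ICMs side by side with the median as a line. Sox2, Utf1 and Fgf4 in the early ICMs lie wholly above the morulae, Cdx2 lies wholly below, and Pou5f1 overlaps between the stages.

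Promoter sequences were examined for the octamer ATGCAAAT, the DNA word bound by POU factors such as Oct4, because members of the pluripotency list moved in both directions. The windows were the 250 bases before to 50 after each RefSeq start (GRCm38.p6, the assembly named mm10), searched on both strands, for 10094 of the genes tested. The octamer was present in 1.39% of all 12847 promoters, in 1.85% of those of genes that rose and in 1.42% of those of genes that fell. The 30 bases around it are shown for 4 genes that differ in their change, with the octamer, or its reverse complement, in capitals: Spp1 at chr5:104435971-104436000 (+ strand), which rose, Srebf2 at chr15:82147062-82147091 (+ strand), which rose, Zfp42, a zinc finger factor of naive cells, at chr8:43307177-43307206 (− strand), which did not reach the fold required (log2 change 0.68 ± 0.14, adjusted p = 1.5e-05), and Cdx2 at chr5:147307378-147307407 (− strand), which fell.
Spp1: tcacatttgaaATGCAAATggaaaaagcaa
Srebf2: ggagtcccgctATGCAAATctgagctgctg
Zfp42: tctgaagaggcATTTGCATaactgagcaag
Cdx2: caacttttaaaATGCAAATcgtgtttctgg
The word was present in promoters of genes that rose, fell and were not called, and a match describes the letters only. The SOX word CATTGTT gave shares of 2.05%, 1.94% and 2.26% of all, rising and falling promoters.

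Among genes of the formative and later epiblast, 9 of 16 could be tested, and 2 rose and 4 fell. Foxd3, a forkhead factor needed for the epiblast, ranged from 0 to 2.05 (median 0.485) CPM in morulae and from 1.94 to 188 (median 27.7) CPM in early ICMs (log2 change 6.09 ± 0.85, adjusted p = 2.2e-09), with early ICM 7 (1.94 CPM) within the morula range and early ICM 2 (2.08 CPM) just above it. Pou3f1, a POU factor of the later epiblast, fell with a log2 change of -2.41 ± 0.48 (adjusted p = 1.4e-05), and Lin28b, an RNA-binding protein, with one of -3.73 ± 0.47 (adjusted p = 4.8e-11). Otx2 ranged from 0 to 30.6 (median 11.1) CPM in morulae and from 1.11 to 20.9 (median 8.53) CPM in early ICMs and did not pass the test (log2 change -0.32 ± 0.54, adjusted p = 0.64).

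Of 10 FGF ligands and receptors tested, 3 rose and 3 fell. Fgf4, the ligand made by epiblast cells (ENSMUSG00000050917, chr7:144847367-144865243), ranged from 4.85 to 14.3 (median 10.3) CPM in morulae and from 70.6 to 563 (median 129) CPM in early ICMs. It was higher in all early ICMs than in any morula (log2 change 4.21 ± 0.40, adjusted p = 1.0e-15), and early ICM 10 stood well above the rest. Fgf10, another ligand, rose from a median of 1.40 (0 to 3.71) CPM to 38.9 (16.0 to 55.6) CPM (log2 change 4.53 ± 0.57, adjusted p = 6.8e-11). Fgf1 was read in morulae alone, with 61 UMIs over the morulae and none over the early ICMs, at least 17.1-fold lower against a floor of 3 UMIs over the group. Of the receptors, Fgfr1 rose from a median of 44.2 (26.5 to 64.6) CPM to 144 (93.5 to 216) CPM (log2 change 1.67 ± 0.21, adjusted p = 5.0e-11). Fgfr3 and Fgfr4 fell, with log2 changes of -3.44 ± 0.50 (adjusted p = 5.2e-09) and -2.73 ± 0.58 (adjusted p = 3.5e-05). Fgfr2, the receptor most associated with trophectoderm and primitive endoderm, ranged from 69.8 to 116 (median 91.5) CPM in morulae and from 16.0 to 81.5 (median 59.5) CPM in early ICMs, and its log2 change of -0.87 ± 0.24 (adjusted p = 0.0017) was below the fold required.

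Several genes that respond to MAPK signalling rose in the early ICMs, which are labelled as kept in a MEK inhibitor. Of 20 tested feedback and immediate early genes, 8 rose and 4 fell, and the summed level of the list was 253 to 410.5 CPM in morulae and 739 to 1491 CPM in early ICMs. Egr1, an immediate early transcription factor, ranged from 0 to 4.11 (median 0.842) CPM in morulae and from 72.0 to 231 (median 143) CPM in early ICMs (log2 change 6.50 ± 0.54, adjusted p = 1.2e-18). Dusp6, a phosphatase that switches off ERK, went from a median of 4.18 (0 to 18.04) CPM to 66.3 (22.3 to 104) CPM (log2 change 3.33 ± 0.45, adjusted p = 7.7e-10). Neither gene overlapped between the stages. Etv5, an ETS factor downstream of FGF, and Spry2, a feedback inhibitor, rose by 3.67 ± 0.27 (adjusted p = 2.1e-21) and 2.51 ± 0.20 (adjusted p = 6.5e-20) on the log2 scale, and Fos by 3.72 ± 0.48 (adjusted p = 1.3e-10). The phosphatase Dusp4 moved the other way, from a median of 22.6 (7.13 to 41.8) CPM to 3.93 (1.94 to 7.08) CPM (log2 change -2.57 ± 0.57, adjusted p = 8.7e-05), as did cyclin D1, Ccnd1 (-2.15 ± 0.58, adjusted p = 0.0011). Spry4, another feedback inhibitor, did not pass the test (log2 change -0.046 ± 0.51, adjusted p = 0.95). All early ICMs carry the inhibitor label and no morula does, so inhibitor and stage cannot be told apart here.

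In the LIF pathway, which sustains naive pluripotent cells through STAT3, both receptor chains and Stat3 rose. Of 14 genes of the list tested, 3 rose and 5 fell. Il6st, the shared signalling chain gp130, went from a median of 0.920 (0 to 2.05) CPM in morulae to 16.3 (8.30 to 32.1) CPM in early ICMs (log2 change 4.28 ± 0.50, adjusted p = 3.2e-12), without overlap. Lifr, the LIF-binding chain, ranged from 0 to 3.06 (median 0.959) CPM in morulae and from 1.04 to 78.8 (median 13.6) CPM in early ICMs (log2 change 4.44 ± 0.73, adjusted p = 1.7e-07), with early ICM 2 inside the morula range and early ICMs 9, 10 and 11 at 64.04, 78.8 and 45.4 CPM. Stat3 rose by 1.57 ± 0.17 (adjusted p = 1.2e-13). Among genes that STAT3 and STAT5 activate, Cish fell from a median of 72.7 (37.9 to 92.7) CPM to 11.7 (6.15 to 19.02) CPM (log2 change -2.59 ± 0.31, adjusted p = 1.2e-11), Socs3 from a median of 54.9 (3.88 to 134) CPM to 3.98 (1.18 to 14.4) CPM (-3.59 ± 0.56, adjusted p = 5.3e-08) and the kinase Pim1 also fell (-1.78 ± 0.27, adjusted p = 1.9e-08), while Socs2 did not pass the test (0.17 ± 0.25, adjusted p = 0.59). The groups overlapped for Socs3, because morula 16 held 3.88 CPM. The Cish promoter holds a STAT word, TTCCNGGAA (any base at N), which is present in 1.15% of all promoters. It is shown in capitals within its 30 bases at chr9:107296649-107296678 (+ strand).
Cish: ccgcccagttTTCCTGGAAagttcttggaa

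Primitive endoderm genes made up the list with the highest share of calls after the oocyte genes. Of 28 members, 23 could be tested, of which 14 rose and 5 fell, and the median log2 change was 2.38. The summed level of the list overlapped between the stages, at 1480 to 1995 (median 1691) CPM in morulae and 1205 to 2560 (median 1916) CPM in early ICMs. Sox17, a SOX factor of endoderm, had 2 UMIs over the 8 morulae and 388 over the early ICMs, a ratio of 231 (exact Poisson 95% interval 63.5 to 1913). Sox17 was nearly absent from early ICMs 2 and 10 (1.04 and 2.46 CPM) and reached 104 CPM in early ICM 15. Pdgfra, the receptor that marks primitive endoderm, ranged from 3.06 to 12.7 (median 7.96) CPM in morulae and from 7.39 to 80.6 (median 65.0) CPM in early ICMs (log2 change 2.83 ± 0.47, adjusted p = 3.0e-07). Early ICM 10 was within the morula range for this gene, and the other seven held 58.5 CPM or more. Matrix genes were among those that rose: Sparc from a median of 2.05 (0.927 to 5.34) CPM to 108 (25.9 to 305) CPM (log2 change 5.61 ± 0.53, adjusted p = 4.2e-16), and the basement membrane chains Col4a1, Col4a2 and Lamb1 by 2.62 ± 0.28, 2.503 ± 0.32 and 2.19 ± 0.30 (adjusted p = 1.1e-13, 6.4e-11 and 1.0e-09). Not all matrix genes of the list rose. Its nidogen genes went from 1276 to 1010 and from 307 to 34 UMIs, summed over morulae and early ICMs. Apoe, a lipid carrier, rose from a median of 9.42 (2.38 to 12.05) CPM to 294 (181 to 466) CPM (log2 change 5.15 ± 0.35, adjusted p = 2.7e-23), with no overlap.

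Gata6, the factor that starts the primitive endoderm programme, was already abundant in morulae. It ranged from 281 to 482 (median 384) CPM in morulae and from 49.2 to 592 (median 412) CPM in early ICMs and did not pass the test (log2 change -0.32 ± 0.25, adjusted p = 0.28). The other 5 early ICMs lay within or above the morula range, whereas early ICMs 9, 10 and 11 lay below every morula, at 118, 49.2 and 157 CPM. Gata4, a related factor, did not pass the test either (log2 change 1.36 ± 0.76, adjusted p = 0.13), but was called when the 16 embryos were fitted alone (1.38, adjusted p = 0.042), and reached its highest levels in early ICMs 9 and 15 (23.2 and 31.9 CPM). The endocytic receptor Lrp2 and its adaptor Dab2, both used by absorptive extraembryonic cells, fell without overlap, Lrp2 from a median of 217 (124 to 359) CPM to 9.03 (3.80 to 28.1) CPM (log2 change -4.22 ± 0.44, adjusted p = 5.4e-14) and Dab2 from a median of 415 (272 to 578) CPM to 31.7 (8.85 to 49.8) CPM (-3.78 ± 0.38, adjusted p = 4.8e-15). A GATA word, AGATAAG, was present in 1.89% of all promoters searched and in 1.85% and 2.31% of those of rising and falling genes.

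The early ICMs differed among themselves in both epiblast and primitive endoderm genes. For genes averaging 50 CPM or more in the group, the median coefficient of variation over embryos was 19.4% in early ICMs and 16.4% in morulae. In a principal component analysis of the 500 most variable genes, the first component took 76.4% of the variance and separated the stages, and early ICM 2 lay nearest the morulae at 17.5 against 30.7 to 46.3 in the other early ICMs and -42.1 to -30.7 in the morulae. On the second component, morulae 1, 16 and 20, the ones with under 10 Y-linked UMIs, lay at 8.10 to 14.7 and the other morulae at -9.83 to -3.91. Early ICM 2 also had the lowest Spp1, Sox17 and Lifr of its group and the highest Alppl2, 483 CPM, a placental-type alkaline phosphatase gene that ranged from 1348 to 2921 (median 1997) CPM in morulae and from 1.23 to 483 (median 46.9) CPM in all early ICMs. Early ICM 10, in contrast, had the highest Fgf4 (563 CPM) and Foxd3 (188 CPM) together with the lowest Gata6, Pdgfra and Alppl2 (1.23 CPM) of the group. Early ICMs 9 and 11 came next in Foxd3, at 112 and 104 CPM. These are values of single embryos from one group and their part in the stage change was not tested beyond leaving each embryo out. Without early ICM 2, the genes called between the stages numbered 4591.

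**Figure D3:**
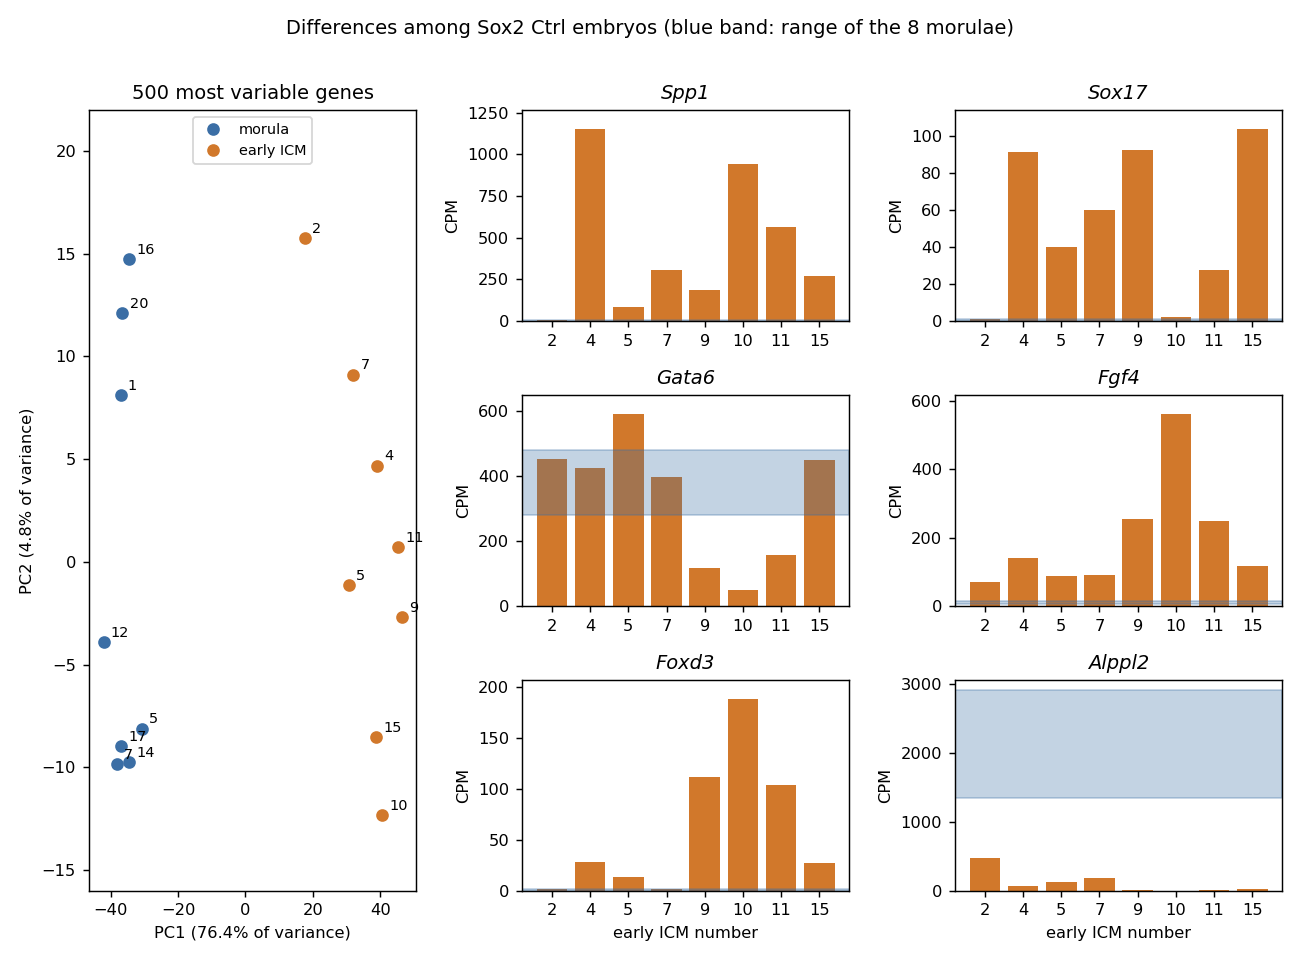
Left, the 16 embryos, numbered as labelled, on the first and second principal components of the 500 most variable genes, which took 76.4% and 4.80% of the variance. Right, bars of the CPM of Spp1, Sox17, Gata6, Fgf4, Foxd3 and Alppl2 in each early ICM, with the range of the 8 morulae as a blue band. Early ICM 2 is closest to the morulae and lowest in Spp1 and Sox17, and early ICM 10 is highest in Fgf4 and lowest in Gata6.

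The early ICMs had lost their outer cells by immunosurgery, and 7 of 19 trophectoderm transcription factors tested were lower in them and 1 higher. The summed level of the list overlapped between the stages, at 1887 to 2438 CPM in morulae and 1493 to 2399 CPM in early ICMs. Cdx2, the factor that fixes trophectoderm fate (ENSMUSG00000029646, chr5:147300805-147307270), ranged from 18.2 to 52.3 (median 33.8) CPM in morulae and from 0 to 15.6 (median 3.61) CPM in early ICMs, with no UMI in early ICMs 11 and 15. The groups did not overlap, and the log2 change was -2.82 ± 0.41 (adjusted p = 4.9e-09). Gata3, which acts in parallel to Cdx2, fell from a median of 143 (92.6 to 179) CPM to 45.0 (21.02 to 62.0) CPM (log2 change -1.72 ± 0.34, adjusted p = 1.3e-05), also without overlap. Eomes, Tfap2c and Hand1 fell, with log2 changes of -1.62 ± 0.37, -1.14 ± 0.23 and -1.60 ± 0.46 (adjusted p = 1.5e-04, 1.8e-05 and 0.0025), and so did Grhl1, an epithelial factor (-3.78 ± 0.63, adjusted p = 3.2e-07). Klf5 and Elf3 did not pass the test (log2 changes -0.13 ± 0.16 and -0.25 ± 0.27, adjusted p = 0.53 and 0.46). Klf6, a zinc finger factor, was the member that rose, from a median of 18.3 (14.1 to 67.7) CPM to 262 (127 to 405) CPM (log2 change 3.19 ± 0.33, adjusted p = 3.5e-14).

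Structural genes of the epithelium were mixed, with 5 of 28 higher and 8 lower. The desmosomal plaque gene Pkp2 fell from a median of 40.4 (26.2 to 75.0) CPM to 3.00 (1.104 to 6.78) CPM (log2 change -3.50 ± 0.34, adjusted p = 1.5e-15), and the tight junction genes Cldn4 and Cldn6 fell with log2 changes of -1.29 ± 0.22 and -1.91 ± 0.48 (adjusted p = 4.8e-07 and 4.3e-04). Krt8, a keratin of simple epithelia, ranged from 85.6 to 286 (median 118) CPM in morulae and from 37.6 to 263 (median 169) CPM in early ICMs and did not pass the test (log2 change 0.14 ± 0.44, adjusted p = 0.82), nor did E-cadherin, Cdh1 (0.047 ± 0.14, adjusted p = 0.8). Ezr, which links membrane and actin, rose from a median of 34.8 (11.2 to 78.8) CPM to 400.2 (198 to 591) CPM (log2 change 3.28 ± 0.31, adjusted p = 3.3e-16). Aqp8, a water channel, had no UMI in morulae and 219 UMIs in early ICMs, at least 86.9-fold higher. How much of the remaining trophectoderm signal came from outer cells left after immunosurgery was not tested.

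In the Hippo pathway, which keeps the coactivator YAP out of the nucleus of inner cells, 4 of 19 tested genes rose and 4 fell. The YAP targets Ccn2 and Ccn1 were among those that rose, Ccn2 from a median of 20.6 (9.18 to 71.2) CPM to 289 (220.0 to 438) CPM (log2 change 3.41 ± 0.35, adjusted p = 2.3e-14) and Ccn1 from a median of 18.1 (7.76 to 54.7) CPM to 66.2 (37.4 to 124) CPM (1.76 ± 0.43, adjusted p = 3.4e-04). Of the DNA-binding partners of YAP, Tead1 rose by 1.29 ± 0.20 (adjusted p = 2.1e-08) and Tead4, needed for trophectoderm, changed by -0.89 ± 0.16 (adjusted p = 1.6e-06), short of the fold required although every early ICM lay below every morula. Yap1 did not pass the test (log2 change -0.16 ± 0.12, adjusted p = 0.27), and neither did Lats2 and Amot, inhibitors of YAP (-0.49 ± 0.24 and -0.43 ± 0.24, adjusted p = 0.08 and 0.12). The Hippo kinase Stk4 and Mob1b, a cofactor of the LATS kinases, fell with log2 changes of -1.30 ± 0.18 and -1.497 ± 0.19 (adjusted p = 1.2e-09 and 4.7e-11). The promoter of Ccn1 holds the TEAD word GGAATGT as its reverse complement, shown in capitals at chr3:145650071-145650100 (− strand) because Ccn1 is a known TEAD target. The word was present in 2.76% of all promoters and in 3.23% and 3.1% of those of rising and falling genes.
Ccn1: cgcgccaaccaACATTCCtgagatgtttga

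Of 17 Wnt genes tested, 7 rose, none fell and 10 did not pass the test. Tcf7l1, the TCF that represses Wnt targets, went from a median of 1.02 (0 to 3.71) CPM in morulae to 24.1 (4.15 to 102) CPM in early ICMs (log2 change 4.70 ± 0.60, adjusted p = 8.3e-11), and Tcf7l2 rose by 3.20 ± 0.33 (adjusted p = 2.4e-14). The receptor Fzd5 rose by 2.40 ± 0.24 (adjusted p = 1.2e-14), and the ligand Wnt6 from a median of 0 (0 to 3.80) CPM to 12.04 (4.75 to 27.1) CPM (4.05 ± 0.64, adjusted p = 5.6e-08). Axin2, a feedback target, went from a median of 4.61 (0 to 8.34) CPM to 58.2 (20.9 to 76.8) CPM (log2 change 3.44 ± 0.37, adjusted p = 1.1e-13). All 5 genes separated the stages without overlap. In the Nodal and BMP list 2 of 18 rose and 4 fell, a share of calls near that of all genes. The inhibitory SMAD gene Smad7 fell from a median of 57.0 (41.7 to 85.2) CPM to 15.8 (6.15 to 21.3) CPM (log2 change -1.97 ± 0.29, adjusted p = 9.5e-09), Id1 fell too (-2.47 ± 0.52, adjusted p = 3.2e-05), and Id3 did not pass the test (0.38 ± 0.28, adjusted p = 0.24).

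Of 20 tested oocyte and maternal-effect genes, 14 fell and 4 rose, with a median log2 change of -2.38. Padi6, of the subcortical maternal complex, fell from a median of 17.6 (7.41 to 26.9) CPM to 1.70 (0 to 9.51) CPM (log2 change -2.77 ± 0.40, adjusted p = 4.0e-09), and the oocyte growth factor Gdf9 from a median of 8.27 (2.98 to 11.6) CPM to 1.03 (0 to 3.31) CPM (-2.89 ± 0.50, adjusted p = 5.7e-07), both with some overlap of the groups. Nlrp14 had 110 UMIs over the morulae and 3 over the early ICMs, a ratio of morula to early ICM of 30.8 (exact Poisson 95% interval 10.3 to 152). The zona pellucida gene Zp3, whose promoter drives the Cre of this line, ranged from 3.56 to 15.3 (median 7.47) CPM in morulae and fell with a log2 change of -2.13 ± 0.48 (adjusted p = 1.1e-04). Khdc3 and Ooep, of the same complex as Padi6, went the other way, Khdc3 from a median of 755 (588 to 1010.3) CPM to 1890.5 (1371 to 2167) CPM (log2 change 1.18 ± 0.16, adjusted p = 7.2e-10) and Ooep with a log2 change of 1.48 ± 0.35 (adjusted p = 2.2e-04). The summed level of the list was 734 to 1159 CPM in morulae and 1468 to 2319.6 CPM in early ICMs, most of it Khdc3 at both stages.

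Genes of DNA methylation rose more often than they fell, and Polycomb genes moved both ways. In the DNA methylation list 7 of 15 tested genes rose and 1 fell. Uhrf1, which recruits the maintenance methyltransferase, rose from a median of 9.53 (5.10 to 13.3) CPM to 97.2 (34.2 to 144) CPM (log2 change 3.32 ± 0.31, adjusted p = 4.7e-16), Uhrf2 by 3.83 ± 0.42 (adjusted p = 2.8e-13) and Tet1, which oxidises methylcytosine, from a median of 54.8 (43.6 to 75.3) CPM to 287 (192 to 547) CPM (2.47 ± 0.17, adjusted p = 5.2e-23). The de novo enzymes did not pass, with log2 changes of -0.74 ± 0.25 for Dnmt3a (adjusted p = 0.011, short of the fold required) and -0.44 ± 0.28 for Dnmt3b (adjusted p = 0.19). In the Polycomb list 4 of 20 rose and 6 fell, and its summed level was 3689 to 4269 CPM in morulae against 2232 to 2683 CPM in early ICMs. Ezh2, the H3K27 methyltransferase, fell from a median of 269 (215 to 319) CPM to 121 (93.4 to 217) CPM (log2 change -1.099 ± 0.16, adjusted p = 1.2e-08) and its partner Eed fell as well (-1.11 ± 0.12, adjusted p = 2.3e-13), while its homologue Ezh1 rose by 1.52 ± 0.22 (adjusted p = 3.5e-09). With all embryos thinned to the same depth the change of Eed was -0.98, short of a call. Kdm2b, which targets a Polycomb complex to CpG islands, fell with a log2 change of -1.89 ± 0.17 (adjusted p = 3.4e-17), and Cbx7 rose by 1.61 ± 0.20 (adjusted p = 4.0e-11).

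By number of genes called, metabolic genes rose more often than they fell. In glycolysis and pyruvate metabolism 13 of 23 tested genes rose and 4 fell. Pkm, the last enzyme of glycolysis, went from a median of 74.7 (35.0 to 95.3) CPM to 263 (188 to 308) CPM (log2 change 1.91 ± 0.21, adjusted p = 6.8e-13), Ldha, which makes lactate, from a median of 10.1 (1.49 to 23.6) CPM to 63.4 (10.4 to 131) CPM (2.40 ± 0.46, adjusted p = 6.8e-06) and Gpi1 by 1.85 ± 0.19 (adjusted p = 1.7e-14), whereas Ldhb, the isoenzyme of the egg, fell (-2.15 ± 0.49, adjusted p = 1.1e-04). The pyruvate carrier subunit Mpc2 and the dehydrogenase subunit Pdha1 fell with log2 changes of -1.35 ± 0.13 and -1.16 ± 0.17 (adjusted p = 7.8e-16 and 8.7e-09). Pck2, mitochondrial phosphoenolpyruvate carboxykinase, rose from a median of 2.96 (1.02 to 3.88) CPM to 85.8 (15.6 to 144) CPM (log2 change 4.81 ± 0.41, adjusted p = 2.3e-18). In the serine, one-carbon and glutathione list 11 of 21 rose and 3 fell: Shmt2 rose by 1.48 ± 0.27 (adjusted p = 2.4e-06) and Gclc, the catalytic subunit of glutathione synthesis, fell (-2.35 ± 0.34, adjusted p = 4.2e-09). The summed level of this list was 2210.1 to 3030.3 (median 2502) CPM in morulae and 1827 to 2742 (median 2284) CPM in early ICMs, with a lower median in the early ICMs. The abundant serine synthesis genes Phgdh and Psat1 had log2 changes of -1.05 ± 0.25 and -0.98 ± 0.18 (adjusted p = 1.8e-04 and 3.7e-06), on either side of the fold required. Phgdh lost its call without any one of morula 16 and early ICMs 9, 10 and 15 or with scaling by total UMIs, and Psat1 gained one without any one of morulae 5, 14 and 17 and early ICMs 10 and 11. Of cholesterol and fatty acid genes, 8 of 22 rose and none fell. Srebf2, the regulator of cholesterol synthesis, rose from a median of 3.43 (0.792 to 7.76) CPM to 69.6 (36.9 to 92.2) CPM (log2 change 4.09 ± 0.46, adjusted p = 6.3e-13) but Sqle and Dhcr7 of the same pathway did not pass the test (-0.0082 ± 0.35 and 0.10 ± 0.22, adjusted p = 0.99 and 0.72).

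The p53 list gave a share of calls below that of all genes, and the stress and cyclin lists one above it. In the p53 list 2 of 19 rose and 3 fell, and Trp53 itself rose by 1.29 ± 0.25 (adjusted p = 9.4e-06). In the stress list 3 of 19 rose and 6 fell. Hspa5, the chaperone of the endoplasmic reticulum, ranged from 75.4 to 614 (median 159) CPM in morulae and from 38.2 to 74.7 (median 57.1) CPM in early ICMs (log2 change -2.13 ± 0.32, adjusted p = 1.5e-08), with morula 20 above the other morulae and no overlap. Among cyclins and their partners 3 of 21 rose and 6 fell. Ccne1, cyclin E1, fell from a median of 271 (166 to 331) CPM to 19.9 (6.64 to 32.2) CPM (log2 change -3.75 ± 0.28, adjusted p = 4.1e-21) and Ccna2, cyclin A2, fell too (-1.71 ± 0.12, adjusted p = 6.4e-23), while Cdk2, the kinase that both activate, rose from a median of 47.8 (28.5 to 60.2) CPM to 233 (159 to 351) CPM (2.32 ± 0.18, adjusted p = 7.2e-21).

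**Figure D4:**
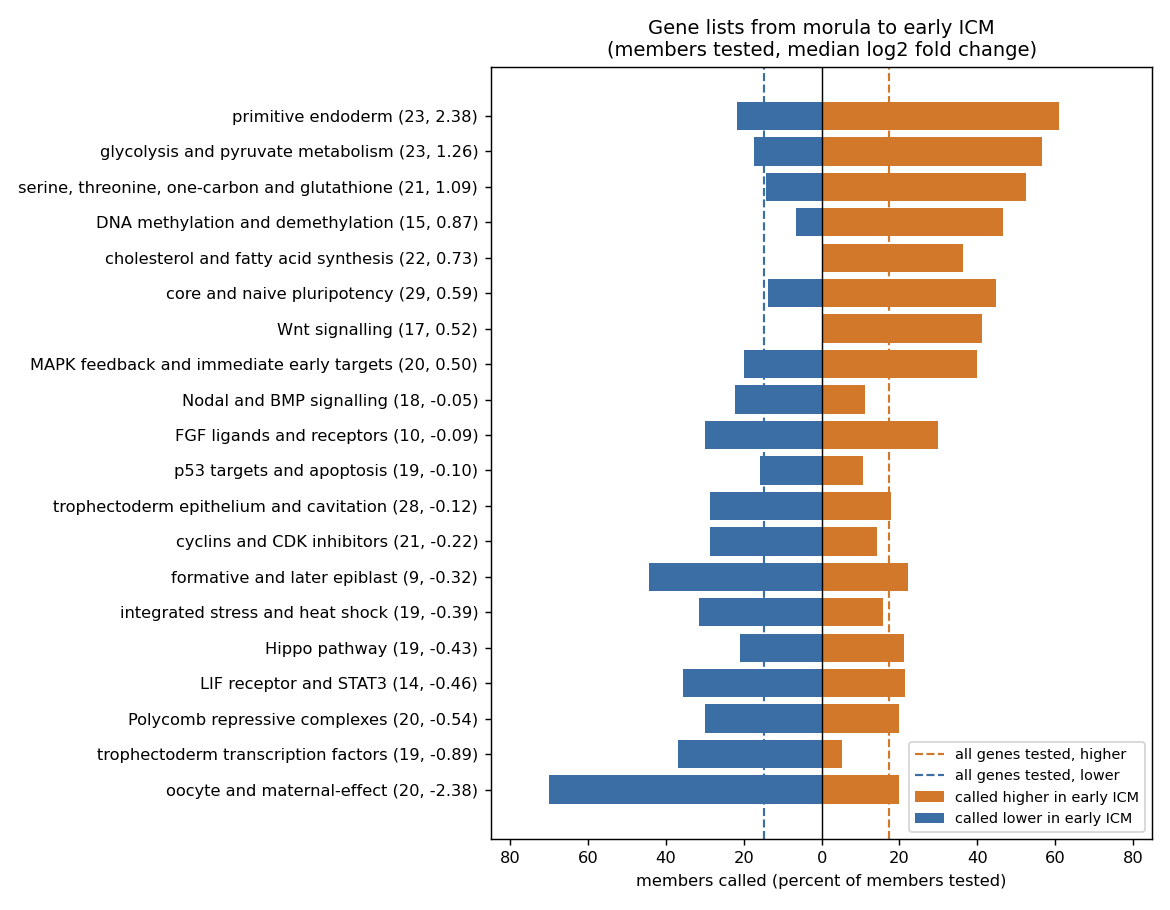
Share of tested members of each gene list called higher or lower in early ICMs, in percent, with the shares over all genes tested (17.2% higher and 14.7% lower) as dashed lines. Primitive endoderm and glycolysis genes lie furthest above the background among rising lists, and oocyte genes among falling lists.

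By size of change, the leading genes were taken from the 15 highest and 15 lowest called log2 changes among genes whose groups did not overlap and whose higher stage averaged 20 CPM or more. Glrx, a glutaredoxin, ranged from 2.04 to 27.8 (median 4.99) CPM in morulae and from 566 to 1110.3 (median 831) CPM in early ICMs (log2 change 6.57 ± 0.37, adjusted p = 1.2e-28), and Upp1, uridine phosphorylase, went from a median of 2.34 (0.744 to 4.45) CPM to 204 (44.6 to 351) CPM (6.37 ± 0.46, adjusted p = 4.7e-22). Gpa33, a cell surface antigen, had no UMI in the morulae and 298 UMIs in the early ICMs, at least 118-fold higher. Meg3, a maternally expressed imprinted noncoding RNA, went from a median of 0.835 (0 to 8.21) CPM to 125 (33.2 to 205) CPM (log2 change 6.21 ± 0.69, adjusted p = 5.4e-13), and Tbx15, a T-box factor, rose by 5.63 ± 0.46 (adjusted p = 2.4e-19). At the other end, Tfrc, the transferrin receptor, fell from a median of 475 (357 to 631) CPM to 29.4 (19.02 to 43.6) CPM (log2 change -4.09 ± 0.30, adjusted p = 4.0e-22). Sp110, a nuclear body protein, had a log2 change of -4.998 ± 0.40 (adjusted p = 1.7e-19), Naalad2, a peptidase, one of -4.60 ± 0.32 (adjusted p = 6.9e-23) and Foxe1, a forkhead factor, one of -5.26 ± 0.47 (adjusted p = 2.1e-17). Alppl2, named above for early ICM 2, had a log2 change of -4.23 ± 0.47 (adjusted p = 3.7e-13).

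The same stages were available from Oct4 Ctrl embryos, 8 per stage, which share no embryo with the Sox2 Ctrl groups, have 1 intact paternal Pou5f1 allele with maternal Pou5f1 deleted by Zp3-Cre, and are labelled with the same ages, culture and inhibitor. There 4080 genes changed (29.0%). Of the genes that rose in Sox2 Ctrl, 1141 rose in Oct4 Ctrl too, which is 47.1% of the rising genes of Sox2 Ctrl and 57.4% of those of Oct4 Ctrl. For falling genes the shared number was 1061, or 51.3% and 50.7%. Another 57 genes were called in opposite directions. When the difference of the stage changes was itself tested, 2328 genes (16.6%) differed, 1252 (8.91%) with a higher and 1076 (7.66%) with a lower log2 change in Sox2 Ctrl. Base composition moved with this difference: median GC content of the transcripts was 55.2% where the change was higher in Sox2 Ctrl and 45.7% where it was lower, against 49.5% over all genes tested. Median transcript length moved with it too, at 2339.5 bases, 3529 bases and 3034 bases in the same order. For the stage change of Sox2 Ctrl itself, median GC content was 51.6% in rising and 48.7% in falling genes. The part of base composition and length, and of any difference in handling between the lines, was not tested.

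Counts of list members whose stage change was called different from that in Oct4 Ctrl are to be read against the 16.6% of all genes tested. The highest shares were those of trophectoderm factors (9 of 19), cholesterol and fatty acid genes (9 of 22), formative and later epiblast genes (3 of 9), stress genes (6 of 19) and Polycomb genes (6 of 20). The pluripotency list had 7 of 29, and the lowest counts were 1 member each in the FGF, Hippo, oocyte and DNA methylation lists and none of 5 in the sex-linked list. In Oct4 Ctrl, 14.1% of all genes tested rose and 14.9% fell. Of the 29 pluripotency genes, 19 rose and 1 fell there, with a median log2 change of 1.28. In Sox2 Ctrl, 13 of them rose and 4 fell, with a median of 0.59. Pou5f1 went from 20.8 ± 5.33 CPM (SD) in Oct4 Ctrl morulae to 80.6 ± 13.2 CPM in Oct4 Ctrl early ICMs, and from 80.5 ± 7.84 CPM to 58.5 ± 15.6 CPM in Sox2 Ctrl embryos (n = 8 per group), a difference of log2 changes of -2.39 ± 0.29 (adjusted p = 5.2e-11). Pou5f1 is the gene altered in the Oct4 line, so its allele number differs between the lines at both stages. Utf1 differed in the other direction, rising by 3.63 ± 0.22 on the log2 scale in Sox2 Ctrl and by 1.14 ± 0.21 in Oct4 Ctrl (difference 2.49 ± 0.29, adjusted p = 2.7e-11). Of 19 trophectoderm factors, 4 rose and 6 fell in Oct4 Ctrl. The stage change of Cdx2 was -0.15 ± 0.38 in Oct4 Ctrl, where morulae held 15.5 ± 7.14 CPM and early ICMs 14.8 ± 10.6 CPM (difference -2.67 ± 0.56, adjusted p = 9.1e-05), and that of Gata3 was 0.27 ± 0.34 (difference -1.99 ± 0.48, adjusted p = 7.3e-04). Dppa3, Fbxo15 and Nr5a2, which fell in Sox2 Ctrl, had changes of -0.14 ± 0.16, 0.51 ± 0.20 and 0.050 ± 0.19 in Oct4 Ctrl (differences -1.14 ± 0.23, -1.84 ± 0.28 and -1.12 ± 0.27, adjusted p = 4.7e-05, 1.4e-07 and 6.3e-04). In the Polycomb list, 0 of 20 genes rose and 5 fell in Oct4 Ctrl. Of the Polycomb genes that fell in Sox2 Ctrl, Ezh2 and Eed changed by 0.75 ± 0.16 and 0.65 ± 0.12 in Oct4 Ctrl (differences -1.85 ± 0.23 and -1.76 ± 0.17, adjusted p = 1.6e-10 and 6.6e-15).

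Outside those lists, Cox8a, a subunit of cytochrome oxidase, rose from a median of 401 (342 to 542) CPM to 1534 (1339.8 to 1666) CPM in Sox2 Ctrl and changed by -1.66 ± 0.14 in Oct4 Ctrl (difference 3.42 ± 0.19, adjusted p = 5.4e-28). Ftl1, the ferritin light chain, differed in the same way, 2.53 ± 0.22 against -1.43 ± 0.21 (difference 3.96 ± 0.31, adjusted p = 1.0e-19), and Hspa5 in the reverse way, -2.13 ± 0.32 against 1.67 ± 0.31 (difference -3.80 ± 0.45, adjusted p = 2.4e-11). Etv5 and Fgf4 rose in both lines and further in Sox2 Ctrl, with differences of 1.14 ± 0.40 (adjusted p = 0.023) and 1.77 ± 0.56 (adjusted p = 0.012), but both lost that call without early ICM 10 (0.93 and 1.31, adjusted p = 0.068 and 0.058). Otx2 rose in Oct4 Ctrl (3.70 ± 0.64) and did not pass in Sox2 Ctrl (difference -4.02 ± 0.85, adjusted p = 1.1e-04).

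**Figure D5:**
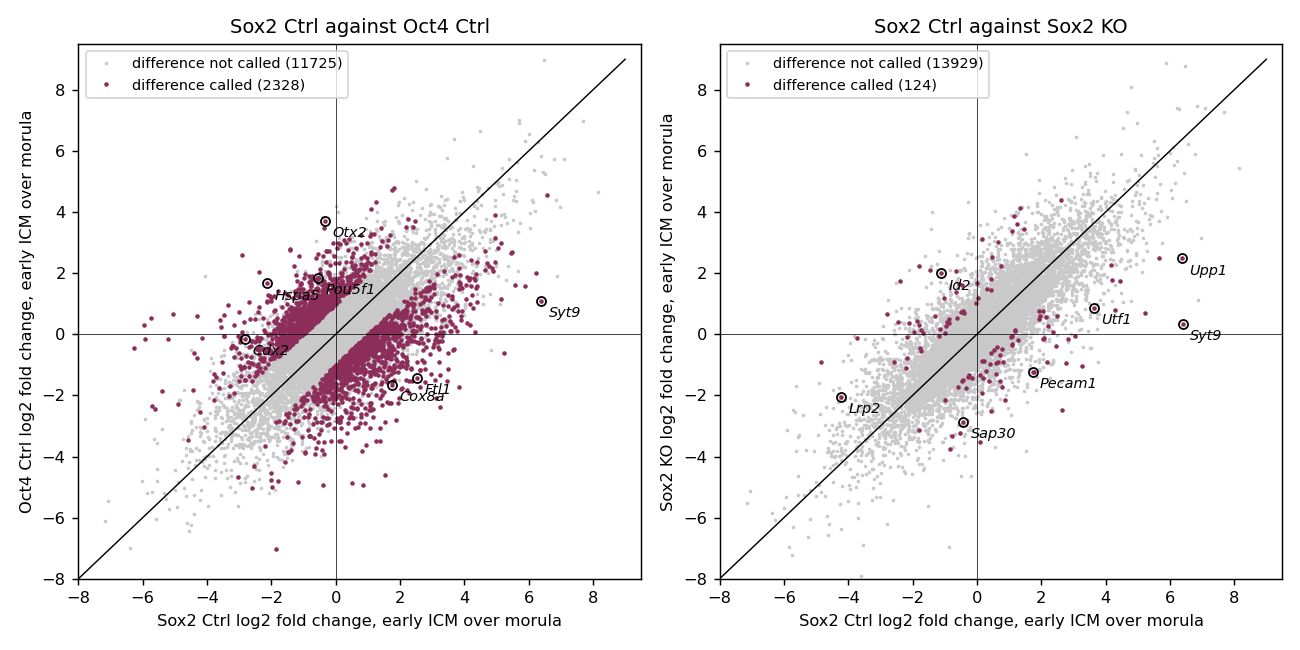
Log2 stage change in Sox2 Ctrl embryos (horizontal axis) against that in Oct4 Ctrl (left) and Sox2 KO embryos (right), one point per gene tested, with genes whose difference was called in colour. 2328 genes are coloured in the left panel and 124 in the right, on the same scales.

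Sox2 KO embryos of the same matings, the EGFP-positive ones, were available at the same stages and have no intact Sox2 allele. There 4568 genes changed (32.5%), and the stage change differed from that in Sox2 Ctrl for 124 genes (0.882%), 70 (0.498%) above and 54 (0.384%) below it in Sox2 Ctrl. Utf1 changed by 0.86 ± 0.21 in KO embryos, where early ICMs held 95.8 ± 34.9 CPM against 501 ± 159 CPM in Ctrl (difference 2.76 ± 0.30, adjusted p = 7.3e-11). Pecam1, an adhesion molecule of ICM cells, rose by 1.73 ± 0.41 in Ctrl and changed by -1.23 ± 0.49 in KO (difference 2.96 ± 0.64, adjusted p = 0.0046). Klf2 and Gdf3 had stage changes of 0.59 ± 0.23 and 2.22 ± 0.30 in Ctrl and -1.29 ± 0.25 and 0.29 ± 0.33 in KO (differences 1.88 ± 0.34 and 1.94 ± 0.45, adjusted p = 5.7e-04 and 0.012). Upp1 and Fgf4 rose further in Ctrl than in KO, with differences of 3.89 ± 0.87 (adjusted p = 0.0069) and 2.43 ± 0.63 (adjusted p = 0.029). In the opposite sense, Gata3 fell in Ctrl and changed by 0.14 ± 0.31 in KO (difference -1.87 ± 0.47, adjusted p = 0.02), and the corepressor Tle4 changed by -0.65 ± 0.21 and 1.39 ± 0.21 (difference -2.04 ± 0.30, adjusted p = 4.1e-06). With counts thinned to one depth, 70 genes differed, and Upp1 and Fgf4 lost their calls (adjusted p = 0.11 and 0.11). Fgf4 also lost it without early ICM 10 or early ICM 11 (adjusted p = 0.096 and 0.0501). Socs2, named above in the LIF list, changed by -1.92 ± 0.29 in KO (difference 2.09 ± 0.38, adjusted p = 5.7e-04), and Id3 by -1.52 ± 0.29 (difference 1.90 ± 0.40, adjusted p = 0.0035).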

How the data were processed

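Single-embryo 3′-end libraries with UMIs were analysed for 16 Sox2 Ctrl embryos. The authors sequenced single-end reads on a NextSeq 500, mapped them to mm10 with TopHat2, assigned them to GENCODE vM23 genes with featureCounts, counted UMIs with UMI-tools and TRUmiCount, and deposited UMI counts per gene. They also deposited regularised log2 (rlog) values from DESeq2, used here only in an alternative. Tool versions and the strand setting of the counting are not given in the sources used here. Counts were fitted with edgeR 4.0.16 (R 4.3.3), TMM scaling and the quasi-likelihood test in 96 Ctrl and KO embryos of 12 groups, which share 1 estimate of the spread. Genes with a UMI in at least 50% of the embryos of a stage were tested (14053 of 29022). Differences of stage changes were interaction contrasts in the same fit. Standard errors are the log2 change divided by the square root of F. limma 3.58.1 and DESeq2 1.42.0 served as alternatives. The code was tested on simulated data. Members and gene lists were chosen with earlier results of these data known. Named genes are list members, the 15 highest and lowest stage changes and the 10 highest and lowest differences at 20 CPM or more. No embryo pair of a group agreed within sampling noise (lowest chi-square per gene 1.93). Promoters came from RefSeq.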

Additional observations from a re-analysis of the deposited data

Results flagged for a closer look

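In at most 328 sets of 8 embryos, covering the named genes, the summed levels of the gene lists and 3 library measures, the highest or lowest embryo stood apart from the others by Dixon's test in 32 cases. Chance flags about 1 in 20 such sets where values are normally distributed, which counts near 0 are not, so the number of cases was not set against that rate. No cause of these values was tested.

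Among the early ICMs, several of these values fell on the same embryos. Early ICM 2 was the highest in Alppl2 (483 CPM), Cdx2 (15.6 CPM), Foxe1 (9.34 CPM), Lin28b (11.4 CPM) and Naalad2 (48.8 CPM), which are all genes that fell from morula to early ICM. Early ICM 10 was the highest in Fgf4 (563 CPM), Jam2 (353 CPM) and the summed pluripotency list (12146 CPM), and the lowest in Pdgfra (7.39 CPM). Early ICM 9 was the highest in Col4a1 (305 CPM), Ccnd1 (13.2 CPM) and Gdf9 (3.31 CPM). Single values stood apart for Kdm2b in early ICM 11 (43.1 CPM, the lowest), Ldhb in early ICM 15 (9.45 CPM), and Padi6 (9.51 CPM) and the summed cumulus markers (2.85 CPM) in early ICM 5.

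Among the morulae, morula 5 was the highest in Ccn1 (54.7 CPM), Col4a2 (34.3 CPM), Gdf3 (25.0 CPM) and Tcl1 (7.41 CPM). Morula 12 was the highest in Tdgf1 (93.8 CPM), Cbx7 (38.7 CPM), Fgf1 (20.4 CPM) and the summed p53 list (1771 CPM), and the lowest in Zfp42 (120.3 CPM). Morula 14 was the highest in Sox2 (34.2 CPM), Sqle (93.0 CPM) and Wnt6 (3.80 CPM), and the lowest in the summed pluripotency list (8673 CPM). Morula 17 was the highest in Meg3 (8.21 CPM) and held the one Bmp4 UMI of its group (1.03 CPM), and morula 1 was the highest in Sparc (5.34 CPM).

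The stage change differed between Sox2 Ctrl and Oct4 Ctrl, by the test of the difference, in 15 of the genes described above and in others given only as counts. The log2 change was higher in Sox2 Ctrl for Ftl1 (by 3.96), Cox8a (3.42), Utf1 (2.49), Fgf4 (1.77) and Etv5 (1.14). The difference was negative for Otx2 (-4.02), Hspa5 (-3.80), Cdx2 (-2.67), Pou5f1 (-2.39), Gata3 (-1.99), Ezh2 (-1.85), Fbxo15 (-1.84), Eed (-1.76), Dppa3 (-1.14) and Nr5a2 (-1.12). Against Sox2 KO the difference was positive for Upp1 (3.89), Pecam1 (2.96), Utf1 (2.76), Fgf4 (2.43), Socs2 (2.09), Gdf3 (1.94), Id3 (1.90) and Klf2 (1.88), and negative for Tle4 (-2.04) and Gata3 (-1.87).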

How the results depend on the processing

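The count of 4489 genes changed between the stages stayed between 4063 and 4591 under other scalings, no filter on low counts, thinned counts, other sets of embryos, DESeq2 and a term for the Y-linked class, which was added after seeing the data, and was 3825 at an adjusted p under 0.01. It was 3696 (33.2% of those tested) among genes with 30 UMIs or more over the 16 embryos, also added after seeing the data. It was 2246 with limma on the deposited rlog values and 7270 without a minimum fold. The cause of the lower count was not tested. The genes that differed from Oct4 Ctrl numbered 3671 without a minimum fold. Those that differed from Sox2 KO numbered 70 with thinned counts. Leaving out each embryo in turn gave 4331 to 4591 genes for the stages, 2248 to 2361 for the difference from Oct4 Ctrl and 91 to 125 for that from Sox2 KO, the lowest each time without early ICM 11. Members called in the gene lists stayed within 1.5 times with DESeq2, with scaling by total UMIs and without early ICM 2, apart from the 1 sex-linked gene called, which was 0 with DESeq2 and 0 without early ICM 2.

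In Sox2 Ctrl, embryos of both stages share the numbers 5 and 7 only, and their deviations from the group means correlated at -0.022 and -0.0097, so the numbers were not taken as pairs. Numbers shared with Sox2 KO embryos or within the Oct4 line were not checked in this way. With the number as a replicate block, 2857 genes changed between the stages, 1350 differed from Oct4 Ctrl with numbers within each line, and 17 differed from Sox2 KO, 7 above and 10 below it in Sox2 Ctrl, of which 10 were among the 124 reported. Under the block the stage calls of Ccnd1, Ldhb, Nr5a2, Pdha1, Phgdh, Xist and Zp3 were not made, nor that of Trp53 (log2 change 0.79), nor the differences from Sox2 KO of Fgf4, Gata3, Gdf3, Id3, Klf2, Pecam1 and Upp1 (adjusted p from 0.11 to 0.56), nor those from Oct4 Ctrl of Etv5 and Fgf4 (0.78 and 0.40, adjusted p = 0.37 and 0.78).

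Over the named genes, 4137 of the alternative values kept the side of the threshold of the reported ones, 44 lost a call, 8 gained one (Gata4 in the 16 embryos alone, Psat1 in the others), and no called value reversed. Among genes not called, 32 of these values had the opposite sign, in 8 genes (Sqle, Tfcp2l1, Spry4, Gata4, Id3, Krt8, Otx2 and Dhcr7). Morulae and early ICMs differ in depth, and genes at a few UMIs per embryo are known only within wide counting error.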
